A study of Mus musculus with 9 samples.

Results

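Nr1d1, Per2 and Tef are genes of the circadian clock, and they were the 3 genes of 26 on the clock lists used here that appear in the deposited table of 98 genes. The members were chosen by their names in that table, which holds genes the authors selected for a difference between the same 2 groups. The paper's threshold in DESeq2 was an adjusted p under 0.1. The difference between the groups therefore chose these genes. It is described here with its values and is not tested. Genes outside the table were not analysed here.

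RNA was taken from maxillae of male C57BL/6 mice aged 8 weeks, whose first upper molar was extracted to leave a bone defect, and all mice were sacrificed 2 weeks later. In Spon. Healing (labelled NT, 4 mice) the socket healed without a graft. In Allograft (labelled SALINE, 5 mice) the socket was filled with processed particles of femur and tibia from mice of the C57BL/6 strain and given saline. The labels do not say how often saline was given, and the hour of sacrifice of each mouse is not given in the sources used here. Each mouse gave 1 CEL-Seq2 library, a method that counts polyadenylated RNA from its 3′ end. The extraction protocol says that the 3 samples with the most RNA were taken for libraries, which differs from the 4 and 5 libraries deposited. Since whole bone was pulverised, fewer cells that express a gene and less RNA per cell cannot be told apart. None of 13 bone cell markers (such as Runx2, Col1a1 and Ctsk) was in the table, so the tissue label could not be checked. Size factors, by which the authors divided the raw counts to give normalized counts, lay between 0.577 and 1.44 for Spon. Healing mice and between 0.653 and 2.20 for Allograft mice, and the sums over the 98 genes (60516 to 443678 counts) are not library depths.

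The circadian clock is a feedback loop of transcription that runs in nearly every cell of the body, bone cells included. The activators CLOCK and BMAL1 bind DNA motifs called E-boxes and switch on the genes of their own repressors, the PER and CRY proteins. A second loop adds nuclear receptors. Nr1d1 encodes REV-ERBα, a heme-binding receptor that represses Bmal1 and other genes. Per2 encodes PERIOD 2, a repressor of CLOCK and BMAL1. Tef encodes thyrotroph embryonic factor, a bZIP activator that binds D-box motifs and passes the rhythm on to output genes. Across a day the RNAs of such genes rise and fall one after another rather than all at once, so their levels relative to one another within a sample carry information that a single level does not.

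Nr1d1 (ENSMUSG00000020889) is transcribed from the minus strand on chromosome 11 (98767932 to 98775333 in GRCm38), and its protein-coding transcript has 8 exons. Per2 (ENSMUSG00000055866) is on chromosome 1, minus strand (91415982 to 91459324), with 23 exons in its protein-coding transcript. Tef (ENSMUSG00000022389) is on chromosome 15, plus strand (81802421 to 81826863), and its 10 annotated transcripts start at several places. In the GENCODE M21 annotation the last 1075 bp of Nr1d1, the end that a 3′ library reads, overlap the 3′ part of Thra on the opposite strand. The counting used strand, so reads of Thra were kept apart from those of Nr1d1 as far as the library preserved strand. The first 193 bp of Tef overlap the antisense gene Gm17597, and no annotated gene overlaps Per2. None of these partners was in the table.

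E-boxes near the start sites are shown because they are the motif through which the clock's activators act on such genes. RefSeq promoter windows (GRCm38.p6, 250 bases before to 50 after a start) matched 2 of the 3 genes, Nr1d1 with 1 window and Tef with 2, and Per2 had no entry. The E-box CACGTG, which reads the same on both strands, was found once in each Tef window, with its first base at -127 and -138 from the start, and in 7.15% of all 32851 windows. The variant CACGTT was found once in the Nr1d1 window, on the other strand with its first base at -28, and in 4.68% of all windows. The D-box TTATGTAA, the motif of TEF, was in none of the 3 windows and in 0.938% of all, and the nuclear receptor half-site AGGTCA was in none and in 16.3% of all, each searched on both strands. A match is only a run of letters, and its absence from these windows says nothing about other parts of a gene.

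The 250 bases before the Nr1d1 start (chr11:98775378-98775627, minus strand) and 30 bases around each Tef E-box (chr15:81802534-81802563 and chr15:81811264-81811293 on the plus strand) are given 5′ to 3′, with the E-box, or the variant as it reads on the gene's strand, in capitals.
Nr1d1: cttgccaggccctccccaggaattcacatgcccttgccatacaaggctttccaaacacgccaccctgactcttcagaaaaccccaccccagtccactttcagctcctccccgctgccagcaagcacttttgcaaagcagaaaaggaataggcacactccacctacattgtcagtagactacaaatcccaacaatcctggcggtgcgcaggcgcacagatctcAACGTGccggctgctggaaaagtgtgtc
Tef, first window: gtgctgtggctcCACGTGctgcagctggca
Tef, second window: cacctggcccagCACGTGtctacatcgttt

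Nr1d1 was higher in Allograft, while Per2 and Tef were lower. Nr1d1 had 2.33 times the mean normalized count of Spon. Healing, Per2 0.519 times and Tef 0.738 times, so the repressor of the second loop stood on the other side from the repressor of the first loop and from the D-box activator. These directions belong to what chose the genes. The hour of sacrifice is not given in the sources used here. For these levels and their ratios, a difference in hour between the groups therefore cannot be told apart from the graft.

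Nr1d1 had raw counts of 479, 686, 420 and 341 in Spon. Healing replicates 1 to 4 and of 1370, 879, 1570, 2974 and 1091 in Allograft replicates 1 to 5. As normalized counts these were 579, 476, 642 and 591 in Spon. Healing and 2096, 1002, 1280, 1350 and 927 in Allograft. Every Allograft library lay above every Spon. Healing library, and Allograft replicate 1 stood above the other 4. The means were 572 ± 69.3 (SD, n = 4) and 1331 ± 464 (SD, n = 5), a difference in mean log2(normalized count + 1) of 1.16 (standard error 0.23). Without Allograft replicate 1 this difference was 0.98. Groups did not overlap in 74.2% of the 97 listed genes that averaged 3 raw counts or more, with 53.6% higher and 20.6% lower in Allograft, so that the separation of Nr1d1 is the usual case in a table of genes chosen for a difference. By the size of its log2 difference Nr1d1 was number 5 of the 65 genes that were higher in Allograft, whose median was 0.57.

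Per2 was the least abundant of the 3 in counts, with raw counts of 334, 284, 206 and 156 in Spon. Healing replicates 1 to 4 and of 82, 95, 160, 346 and 292 in Allograft replicates 1 to 5. Its normalized counts were 404, 197, 315 and 270 in Spon. Healing and 125, 108, 130, 157 and 248 in Allograft. Allograft replicate 5 lay above Spon. Healing replicate 2, and apart from that library the Allograft mice were below all Spon. Healing mice. The means were 297 ± 86.3 (SD, n = 4) and 154 ± 55.5 (SD, n = 5), and the log2 difference was -0.96 (standard error 0.30). Left out in turn, Spon. Healing replicate 1 gave -0.79 and Allograft replicate 5 gave -1.15. Per2 was number 14 by size of the 32 genes that were lower in Allograft, whose median was -0.92.

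Tef had raw counts of 971, 1191, 722 and 591 in Spon. Healing replicates 1 to 4 and of 427, 724, 800, 1943 and 936 in Allograft replicates 1 to 5. Its normalized counts were 1174, 827, 1103 and 1024 in Spon. Healing and 653, 825, 652, 882 and 796 in Allograft. The overlap came from Spon. Healing replicate 2, which lay below Allograft replicate 4 and level with Allograft replicate 2. The means were 1032 ± 150 (SD, n = 4) and 762 ± 104 (SD, n = 5), with a log2 difference of -0.44 (standard error 0.14). Of the 32 lower genes Tef had the smallest log2 difference, number 32 by size. With size factors computed from the listed genes themselves, which shift the median log2 difference of all listed genes by -0.32 to -0.41, Tef had -0.75 to -0.85 and its groups no longer overlapped, while Per2 still overlapped and Nr1d1, at 0.75 to 0.85, was still separated. Under these scalings the groups did not overlap in 33 or 34 of the 97 listed genes, against 72 with the authors' size factors.

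**Figure D1:**
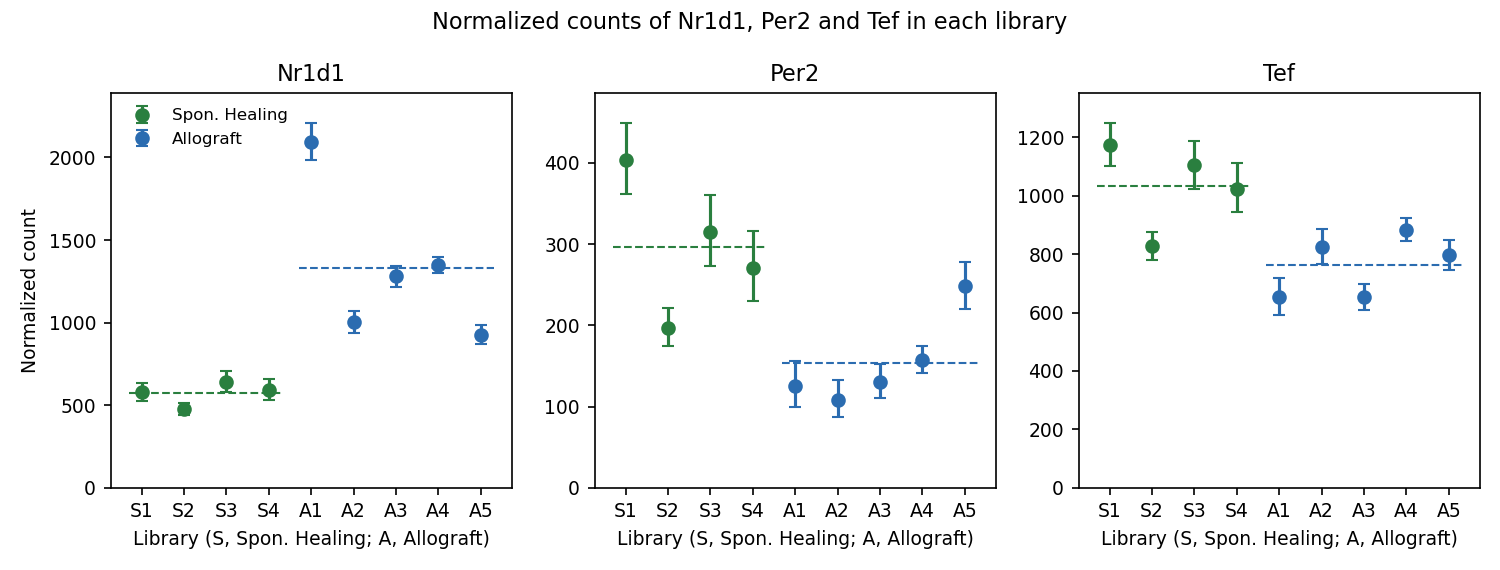
Normalized counts (vertical axis, from 0) of Nr1d1, Per2 and Tef in the 4 Spon. Healing libraries (S1 to S4) and the 5 Allograft libraries (A1 to A5). Bars are exact Poisson 95% intervals for counting error only, dashed lines are group means. Nr1d1 reaches 2096 in A1, Per2 reaches 248 in A5, and S2 is the lowest Spon. Healing library in each panel.

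**Figure D2:**
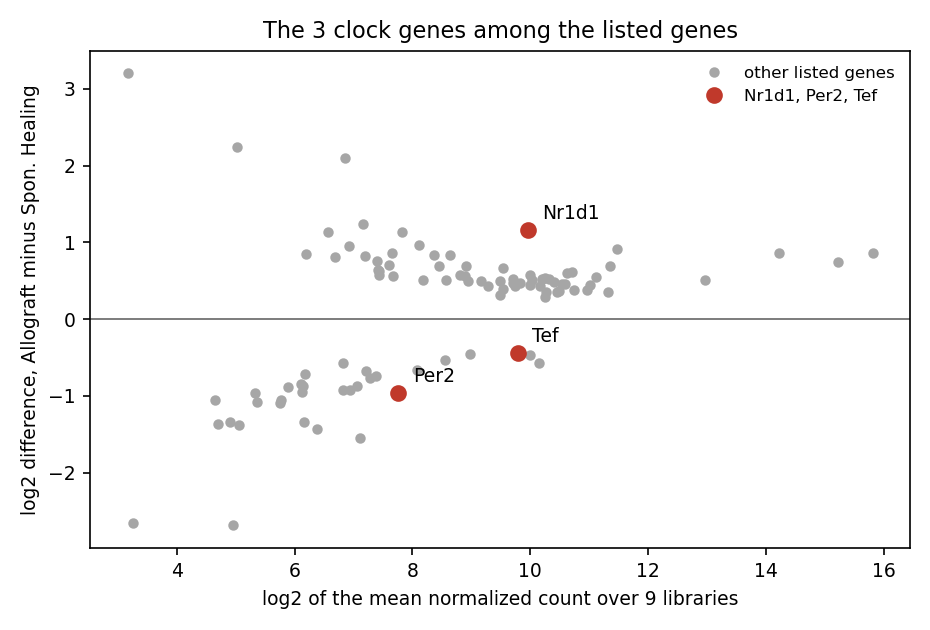
Log2 difference between the group means of log2(normalized count + 1) (Allograft minus Spon. Healing) against the log2 of the mean normalized count, for the 97 listed genes that averaged 3 raw counts or more. Nr1d1 sits at 1.16 among the 65 higher genes, and Per2 at -0.96 and Tef at -0.44 among the 32 lower genes. The space around 0 is thin because the table holds genes chosen for a difference.

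The 3 genes differed in how far mice of 1 group lay apart. The coefficient of variation of Nr1d1 was 12.1% in Spon. Healing and 34.8% in Allograft, that of Per2 29.1% and 36.1%, and that of Tef 14.5% and 13.7%. Poisson counting error, taken from the raw counts as if each were independent, was at most 5.42% for Nr1d1, 11% for Per2 and 4.84% for Tef. That is below the spread between libraries in each case. It leaves out noise from library preparation. With 1 library per mouse, that noise cannot be told apart from differences between mice. On the log2 scale the SD of Nr1d1 in Allograft was 0.46, number 19 from the largest of 97 genes (median 0.23), against 0.18 and number 60 in Spon. Healing. Per2 was number 20 in both groups with 0.43 and 0.46, while Tef was near the middle at 0.22 and 0.20. Whether the spread of Nr1d1 differs between the groups was not tested.

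The ratio of 2 genes within a library does not depend on its size factor, apart from the pseudocount of 1. It is used here to compare libraries, not to say which gene had more transcripts. The ratio of Nr1d1 to Per2 normalized counts was 1.43, 2.42, 2.04 and 2.19 in Spon. Healing replicates 1 to 4 and 16.7, 9.25, 9.81, 8.60 and 3.74 in Allograft replicates 1 to 5. The lowest Allograft mouse was thus above the highest Spon. Healing mouse, and within Allograft the ratio spanned from 3.74 to 16.7. The mean log2 ratio was 0.98 ± 0.33 (SD, n = 4) and 3.11 ± 0.77 (SD, n = 5), a difference of 2.12. Counting error of this log2 ratio was 0.08 to 0.16 per library (standard error), well under the spread within Allograft.

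The ratio of Nr1d1 to Tef was 0.493, 0.576, 0.582 and 0.577 in Spon. Healing replicates 1 to 4. In Allograft replicates 1 to 5 it was 3.21, 1.21, 1.96, 1.53 and 1.17. Nr1d1 was thus below Tef in counts in each Spon. Healing library and above it in each Allograft library. In Spon. Healing the replicates 2, 3 and 4 had log2 ratios from -0.79 to -0.78, closer to each other than their counting errors of 0.07 to 0.10, and replicate 1 stood at -1.02. The group means of the log2 ratio were -0.85 ± 0.11 (SD, n = 4) and 0.75 ± 0.60 (SD, n = 5), a difference of 1.60. The ratio of Tef to Per2, genes that were both lower in Allograft, was 2.91, 4.19, 3.50 and 3.79 in Spon. Healing and 5.21, 7.62, 5.00, 5.62 and 3.21 in Allograft. Here the groups overlapped, through Allograft replicate 5, and the difference in log2 ratio of 0.52 was near the SD of 0.45 within Allograft (0.22 in Spon. Healing). It was 0.69 without Allograft replicate 5 and 0.38 without Allograft replicate 2. The groups of these ratios rest on the contrast that chose the genes, and their differences were not tested. In a ratio of a higher to a lower gene the log2 differences of both add up. How often such ratios separate the groups over all listed genes was not computed.

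**Figure D3:**
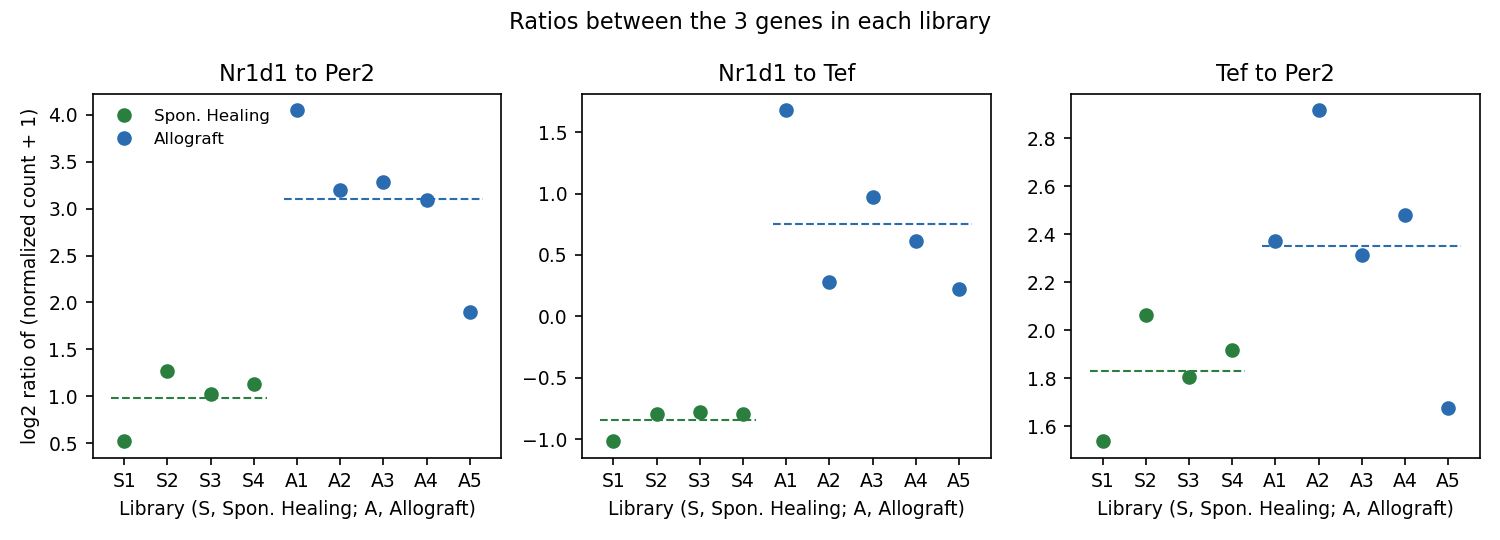
Log2 ratios between pairs of the 3 genes, from normalized counts plus 1, in each Spon. Healing (S1 to S4) and Allograft (A1 to A5) library, with dashed lines at the group means. Nr1d1 to Per2 (means 0.98 and 3.11) and Nr1d1 to Tef (-0.85 and 0.75), each a higher gene over a lower one, separate the groups. Tef to Per2 overlaps through A5.

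Whether the 3 genes moved together from mouse to mouse does not depend on the difference between the groups, so it was tested after the group means were removed. In Spon. Healing, Per2 and Tef put the 4 mice in the same order, replicate 1 highest, then 3, 4 and 2, and replicate 2 was also the lowest in Nr1d1. That library had the largest size factor of its group, and it remained the lowest in all 3 genes under the 3 other scalings tried. In Allograft the orders came apart. Nr1d1 ran from replicate 1 down through 4, 3 and 2 to 5, while Per2 ran from replicate 5 down through 4, 3 and 1 to 2. The mouse with the highest Nr1d1 (replicate 1) lay 0.23 below the group mean of Per2 and 0.21 below that of Tef on the log2 scale, and the mouse with the lowest Nr1d1 (replicate 5) lay 0.75 above the group mean of Per2.

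Over the 9 libraries, Per2 and Tef had Pearson's r = 0.58 (exact permutation p = 0.135, adjusted p = 0.405) and Spearman's rho = 0.53 (exact permutation p = 0.180, adjusted p = 0.540). They lay on the same side of their group means in 3 of 4 Spon. Healing and 4 of 5 Allograft mice. For Nr1d1 and Per2, r was -0.16 (exact permutation p = 0.721, adjusted p = 0.721) and rho was 0.033 (exact permutation p = 0.953, adjusted p = 0.953). For Nr1d1 and Tef, r was -0.20 (exact permutation p = 0.666, adjusted p = 0.721) and rho was 0.12 (exact permutation p = 0.786, adjusted p = 0.953), although these genes lay on the same side of the mean in 4 of 4 Spon. Healing mice and in 1 of 5 Allograft mice. All tests were two-sided, with one gene shuffled within its group in all 2880 orders and adjustment over the 3 pairs, and no pair passed 0.05. With 9 libraries this does not show that the genes varied independently. For comparison, the median r over all 4656 pairs of listed genes was 0.02 (quartiles -0.29 and 0.35). Both values of Nr1d1 lay between these quartiles, and that of Per2 and Tef lay above the upper one. These pairs mix genes that were higher and lower in Allograft, while Per2 and Tef were both lower. Pairs of lower genes alone were not examined, so whether this value is unusual among them is not known.

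Single mice moved the correlations that involve Nr1d1. For Nr1d1 and Per2, r turned to 0.36 without Allograft replicate 5 and to 0.039 without Allograft replicate 1, and was -0.39 without Spon. Healing replicate 2 or Allograft replicate 2. For Nr1d1 and Tef, r turned to 0.29 without Allograft replicate 1 and was -0.54 without Spon. Healing replicate 2. With Allograft replicates 1 and 5 left out, the libraries farthest from the median of Nr1d1, r became 0.75 for Nr1d1 and Per2 (exact permutation p = 0.0694) and 0.39 for Nr1d1 and Tef (exact permutation p = 0.451). For Per2 and Tef r was 0.60 (exact permutation p = 0.236) without Spon. Healing replicate 1 and Allograft replicate 5. A size factor acts on all genes of a library together. The correlation of each gene with the log2 size factor within groups was -0.42 for Nr1d1 (exact permutation p = 0.335), 0.012 for Per2 (exact permutation p = 0.975) and 0.034 for Tef (exact permutation p = 0.939), each with an adjusted p of 0.975 over the 3 genes. The matching rho values were -0.33, 0.10 and 0.067 (exact permutation p = 0.444, 0.817 and 0.892, each with an adjusted p of 0.892). Without the 2 libraries of the most extreme size factors r was -0.48, -0.19 and -0.71, so the value of Tef rests on those libraries.

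**Figure D4:**
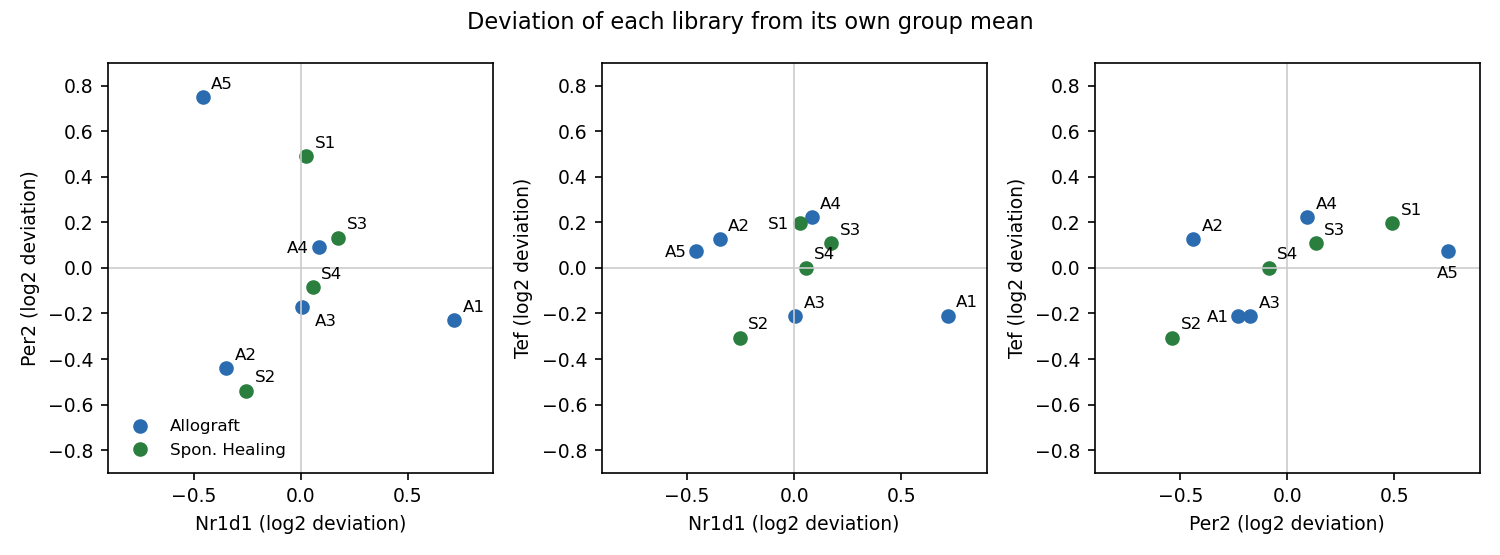
Deviation of each library from its own group mean in log2(normalized count + 1), for each pair of the 3 genes (S, Spon. Healing, A, Allograft, with the replicate number). In the first panel A1 (0.72 in Nr1d1) and A5 (-0.46 in Nr1d1, 0.75 in Per2) lie away from the other libraries, and Per2 against Tef gives r = 0.58.

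The listed genes whose deviations ran closest to each member were ranked among the 95 others that averaged 10 raw counts or more. These are descriptions over 9 libraries, picked as the extremes of 95 values and so with no p. For Nr1d1 they were Capzb, the β subunit of the actin capping protein, with r = 0.90 (rho = 0.75), the DNA helicase gene Recql with r = 0.76 (rho = 0.63), and Sec24d, a coat protein of vesicles that leave the endoplasmic reticulum, with r = 0.75 (rho = 0.32). Without Allograft replicate 1 the value of Sec24d fell to 0.17 and that of Capzb to 0.66, while that of Recql was 0.80. Capzb lay between 1062 and 1132 normalized counts in the Spon. Healing mice and between 1192 and 1547 in the Allograft mice, where replicate 1 was again the highest. The lowest was Gm37274 with r = -0.88 (rho = -0.63), at 101.5 to 107 in Spon. Healing and 12.2 to 64.6 in Allograft. Its r was -0.60 without Allograft replicate 1, where its raw count was 8.

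For Per2 the closest genes were the vomeronasal receptor gene Vmn2r97 with r = 0.86 (rho = 0.73), the septin gene Sept4 with r = 0.74 (rho = 0.75) and Vps41, a subunit of a vesicle tethering complex, with r = 0.64 (rho = 0.52). For Tef they were Ermard with r = 0.75 (rho = 0.62), N4bp2l2 with r = 0.69 (rho = 0.68) and Ushbp1 with r = 0.66 (rho = 0.52). Neither Per2 nor Tef was among the 3 closest genes of the other. The lowest value was that of Sfpq, a nuclear RNA-binding protein of splicing, for both Per2 (r = -0.85, rho = -0.95) and Tef (r = -0.78, rho = -0.63). Sfpq lay between 887 and 1174 normalized counts in the Spon. Healing mice, with replicate 2 the highest, and between 1253 and 1562 in the Allograft mice, with replicate 5 the lowest, the mice in which Per2 was lowest and highest of their group.

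Of the other clock genes none was in the table. The lists held 3 activators (Arntl, which encodes BMAL1, Clock and Npas2) with 0 listed, 8 repressors with Per2 alone, 5 nuclear receptors with Nr1d1 alone, 4 D-box binding factors with Tef alone and 6 kinases and ubiquitin ligase parts with 0. Per1, Per3, Cry1, Cry2, Nr1d2, Dbp, Hlf, Nfil3 and Bhlhe40 were thus among those not listed. None of 8 genes that respond to glucocorticoids (such as Fkbp5 and Tsc22d3) was listed. Since the table holds genes past a threshold, their absence leaves their change unknown, and the phase of the clock in these mice could not be read from 3 genes.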

How the data were processed

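Total RNA of maxillae from 9 mice (4 Spon. Healing, 5 Allograft) was sequenced as CEL-Seq2 libraries. The authors trimmed reads with cutadapt, aligned them to GRCm38 (Ensembl release 99) with TopHat, allowing up to 2 mismatches, and counted reads by strand with htseq-count (versions not given in the sources used here). The deposited values used are raw counts per gene and a normalized signal, for which the authors scaled each library by its own DESeq2 size factor (checked as a constant ratio within a library). The authors' mean, fold change, standard error and p-value columns hold their own comparison and were not used. Library depth is not known here, and Poisson intervals cover counting error only.

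Normalized counts were compared as log2(value + 1) in Python 3.11.15 with numpy 2.4.6 and scipy 1.17.1. Listed genes with a mean of at least 3 raw counts (97 of 98) formed the background. Group differences were described, not tested, because they chose the genes, so edgeR's quasi-likelihood test was not run. Correlations used deviations from group means with exact permutation within groups. The procedure was tried on simulated data with no correlation or a nearly perfect one. How often it finds correlations in between was not examined. Named genes were the 3 members, listed genes of the clock lists, and for each member the 3 listed genes with the highest and the 1 with the lowest within-group r (mean of at least 10 counts). The members and lists were chosen with earlier results of these data known. Alternatives were a pseudocount of 0.5, TMM factors (edgeR 4.0.16), median of ratios and sums over the listed genes without the mitochondrially encoded ones, linear values, replicate blocks, other count minimums, and each library left out. The p-values give how often shuffling 1 gene within groups gave a correlation at least as strong, and they treat the libraries as independent. Nothing says whether the mice of a group were handled apart beyond 1 library each. Gene overlaps came from GENCODE M21 and promoter windows from RefSeq, both on GRCm38.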

Additional observations from a re-analysis of the deposited data

Results flagged for a closer look

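The log2 ratio of Nr1d1 to Tef in Spon. Healing replicate 1 stood apart from the other 3 libraries of its group. Its gap to the nearest library was 0.941 of the whole range of the group, above Dixon's critical value at 95% for 4 samples. The log2 ratios were -1.02, -0.79, -0.78 and -0.79 in replicates 1 to 4, with counting errors of 0.08, 0.07, 0.09 and 0.10. Chance marks about 1 in 20 groups, and 12 groups were examined (3 genes and 3 ratios in 2 groups). Replicate 1 also had the highest Per2 and Tef of its group, at 404 and 1174 normalized counts.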

How the results depend on the processing

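The directions of the 3 genes and 3 ratios were the same under every alternative run. With TMM factors, median of ratios and the sum without mitochondrially encoded genes, all computed over the listed genes, the log2 difference of Tef was -0.75, -0.76 and -0.85, that of Nr1d1 under the last of these 0.75, and the listed genes whose groups did not overlap numbered 34, 33 and 33 in place of 72. These scalings use as reference the table itself, in which 65 of 97 genes were higher in Allograft. The correlation of Nr1d1 and Tef turned to 0.030 with TMM and 0.064 with median of ratios, and that of Nr1d1 and Per2 to 0.018 with the latter. No correlation had an adjusted p under 0.05 in any alternative, and the lowest adjusted p (exact permutation) was 0.135, for Per2 and Tef without Allograft replicate 2. With each library left out in turn, r ranged from -0.39 to 0.36 for Nr1d1 and Per2 (positive without Allograft replicate 1 or 5), from -0.54 to 0.29 for Nr1d1 and Tef (positive without Allograft replicate 1) and from 0.38 to 0.78 for Per2 and Tef. Left out in the same way, the log2 differences ran from 0.98 to 1.28 for Nr1d1, from -1.15 to -0.79 for Per2 and from -0.54 to -0.37 for Tef, the log2 ratio differences from 1.88 to 2.42, 1.37 to 1.73 and 0.38 to 0.69, and the non-overlapping genes from 73 to 80.

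Sample titles and descriptions number the mice differently. The deviations of same-numbered libraries had r of 0.01 to 0.26 by title and -0.38 to 0.24 by description over the 97 genes. Differently numbered libraries were not compared, so these values cannot show whether the numbers pair the mice. A replicate block by title number used 4 pairs and left out Allograft replicate 5. The log2 differences were 1.28, -1.15 and -0.45 for Nr1d1, Per2 and Tef, and the ratio differences 2.42, 1.73 and 0.69. These equal the values without Allograft replicate 5 and no block. Correlations of the differences within pairs were -0.75 for Nr1d1 and Per2, -0.52 for Nr1d1 and Tef and 0.90 for Per2 and Tef. Their smallest adjusted p was 0.375 (exact permutation over the 4 pairs). By description number the block held only Spon. Healing replicates 1, 2 and 4 and Allograft replicates 2, 4 and 5, and gave 0.98, -0.78 and -0.26.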
